A study of Mus musculus with 31 samples.

Results

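Heat shock chaperone genes were followed in hypothalamus RNA as a set of 10 members: Hsf1, Hspa1a, Hspa1b, Hspa8, Hsph1, Hsp90aa1, Hsp90ab1, Dnajb1, Hspb1 and Hspd1. They were chosen by name, with Ensembl gene identifiers matched to mouse symbols, and all 10 were found among the 54532 genes of the deposited table and passed the filter on low counts. The libraries came from C57BL/6J mice, an inbred strain, sampled at 4 months of age. Dams of the control groups ate a control diet and dams of the obesogenic groups a diet high in fat and sugar while pregnant and nursing. Offspring of both kinds of dam moved to chow at weaning on postnatal day 21. At 3 months of age every group, controls too, was given the obesogenic diet for 4 weeks, so no group was without that diet as an adult. Control females and control males gave 8 libraries each, obesogenic females 7 and obesogenic males 8, with 23118626 to 38547288 counted read pairs per library. Because no label ties a library to an animal or a litter, p-values measure only the spread between these libraries, which may be in part technical. The titles of obesogenic female 1 and obesogenic male 1 join a pair of numbers, and whether these mark renumbered or pooled animals is not given in the labels.

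Heat shock proteins bind unfolded or partly folded proteins and use partner proteins to release them folded, hand them on, or keep them from clumping. HSF1 is the transcription factor that raises them under heat, oxidative and other protein stress: it is held inactive by the chaperones themselves, and when released it binds heat shock elements, inverted repeats of the bases GAA, in front of its targets. Some members, such as Hspa8 and Hsp90ab1, are made at high levels in unstressed cells, while Hspa1a, Hspa1b, Dnajb1 and Hspb1 are classic stress-induced genes. In the hypothalamus the mitochondrial chaperone HSP60, product of Hspd1, has been tied to mitochondrial function and the response to insulin.

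The stretches around the starts of some members were searched for exact matches to the element. RefSeq windows of 300 bases on GRCm38.p6, from 250 before to 50 after a start, matched 6 of the 10 members by symbol (Hspa1a, Hspa1b, Hsph1, Dnajb1, Hspb1 and Hspd1) and the partner gene Hspe1; Hsf1, Hspa8, Hsp90aa1 and Hsp90ab1 had no entry. Heat shock elements were searched on both strands as 3 units, GAANNTTCNNGAA, and as 2 units, GAANNTTC or TTCNNGAA, each of which also lies inside a match of 3 units. The 3-unit form was in 0.603% of 32851 mouse windows, GAANNTTC in 7.86% and TTCNNGAA in 8.52%. The 250 bases before the start of 4 members are shown because Hspa1a and Hspa1b are near copies and because Hspd1 and Hsph1 hold the 3-unit form; capitals mark matches to any of the 3 forms.
Hspa1a: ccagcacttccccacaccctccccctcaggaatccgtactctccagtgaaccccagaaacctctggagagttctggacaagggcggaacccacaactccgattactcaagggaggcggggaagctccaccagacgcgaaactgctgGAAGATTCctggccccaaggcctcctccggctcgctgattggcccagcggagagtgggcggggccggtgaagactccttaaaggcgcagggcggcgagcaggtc
Hspa1b: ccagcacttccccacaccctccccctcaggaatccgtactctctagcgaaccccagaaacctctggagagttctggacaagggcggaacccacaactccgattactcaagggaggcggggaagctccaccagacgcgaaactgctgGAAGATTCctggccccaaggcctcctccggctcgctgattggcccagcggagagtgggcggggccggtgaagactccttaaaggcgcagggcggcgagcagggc
Hsph1: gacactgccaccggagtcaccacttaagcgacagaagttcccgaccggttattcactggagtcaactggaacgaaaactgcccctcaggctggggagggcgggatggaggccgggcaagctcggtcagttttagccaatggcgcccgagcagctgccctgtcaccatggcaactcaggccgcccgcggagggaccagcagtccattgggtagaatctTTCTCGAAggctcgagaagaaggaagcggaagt
Hspd1: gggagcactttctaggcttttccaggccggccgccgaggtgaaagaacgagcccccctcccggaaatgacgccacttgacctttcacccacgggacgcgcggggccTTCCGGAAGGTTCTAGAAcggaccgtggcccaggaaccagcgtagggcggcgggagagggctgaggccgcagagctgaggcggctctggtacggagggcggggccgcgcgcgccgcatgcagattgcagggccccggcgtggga
These are the minus strand of chr17:34972157-34972406, chr17:34959239-34959488, chr5:149636337-149636586 and chr1:55087933-55088182. The windows of Hspa1a and Hspa1b had 98.7% identical bases, and each held one GAANNTTC at positions -104 to -97 from the start. In Hspd1 the run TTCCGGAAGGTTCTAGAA held 2 overlapping 3-unit matches between positions -144 and -127. The same bases lie in the window of Hspe1, which is transcribed the other way: this window of Hspd1 and that of Hspe1 overlapped by 285 bases. RefSeq has another window of Hspd1, chr1:55088194-55088493, whose start is the outer end of the gene model, and it held none of the forms. Hsph1 had TTCNNGAA at positions -33 to -26, and its 3-unit match, TTCTGGAAAGTTC, lay after the start at positions 36 to 48. Hspb1 had GAANNTTC in 2 places (positions -117 to -110 and -97 to -90), and neither window of Dnajb1 held any of the forms. A match of letters is a description of the window and says nothing on whether HSF1 was bound. Only exact matches were searched, so a window without a match may still hold an element with changed bases, and elements outside the windows were not seen.

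A set of 5 libraries was held in doubt, 3 because their RNA stood apart and 2 because of their sex label alone. The counts of members called, the log2 folds discussed and the pairs named are given with and without these 5. Control female 7 and control male 7 had Xist and Y-linked counts against their label. Control female 5, control male 6 and obesogenic female 3 had median correlations with the other libraries of 0.910 to 0.936, against 0.967 to 0.979 elsewhere. Control female 5 had 1264 CPM summed over 7 genes of olfactory bulb and telencephalon (at most 23.1 CPM elsewhere) and 153 CPM over 12 genes of hypothalamic neurons (at least 1079 elsewhere). Control male 6 had 3493 CPM for those neuron genes, and in the 26 libraries not in doubt that sum was 1079 to 2223. Fewer genes were detected in control male 6 (18734) and obesogenic female 3 (18513) than in the 26 libraries not in doubt (21311 to 22918).

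The 10 genes ranged from abundant to scarce transcripts. Levels are given per length, as CPM (counts scaled to library size with TMM factors) per kilobase of gene model. Over 31 libraries, Hsp90ab1, the constitutive cytosolic HSP90, had a mean level of 571.5 ± 59.9 (SD, n = 31). Hspa8, the constitutive HSP70 of the cytosol, had a level of 410.5 ± 52.8, and Hsp90aa1, the inducible HSP90, 279 ± 28.3. Those 3 genes kept that order in 31 of 31 libraries. Hspd1, the chaperonin of the mitochondrial matrix, stood at a level of 78.6 ± 7.50 CPM per kb. Hsph1, an HSP110 protein that recharges HSP70 with ATP, stood at 43.8 ± 6.26, and Dnajb1, an HSP40 protein that loads clients onto HSP70, at 19.7 ± 1.95. Each of these was also above the next in 31 of 31 libraries, except that Dnajb1 was above Hspb1 in 30.

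The lowest levels were those of the factor and of the stress-induced genes Hspb1, Hspa1a and Hspa1b. Hspb1, the small heat shock protein HSP25, had a level of 5.79 ± 3.60 CPM per kb and Hsf1 5.25 ± 0.652, and Hspb1 was above Hsf1 in 12 of 31 libraries, so those neighbours cannot be ordered beyond their spread. Hspa1a had a level of 1.85 ± 0.50 CPM per kb and Hspa1b 0.994 ± 0.368, and Hspa1a was the higher in 30 of 31 libraries. Hspa1a and Hspa1b encode near-identical inducible HSP70 proteins, and their levels are uncertain: 56.5% of the 100-base stretches in Hspa1a transcripts and 49.9% of those in Hspa1b also occurred in another gene, and pairs that map to several places were left out of the counts. The same share was 44.0% in Hspb1 (with the pseudogene Hsp25-ps1), 38% in Hsp90aa1, 28.5% in Hspa8 and 23.9% in Hspd1. It was 0% in Hsf1, Hsph1, Hsp90ab1 and Dnajb1, so the levels of the other 6 genes may be understated relative to these 4.

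**Figure D1:**
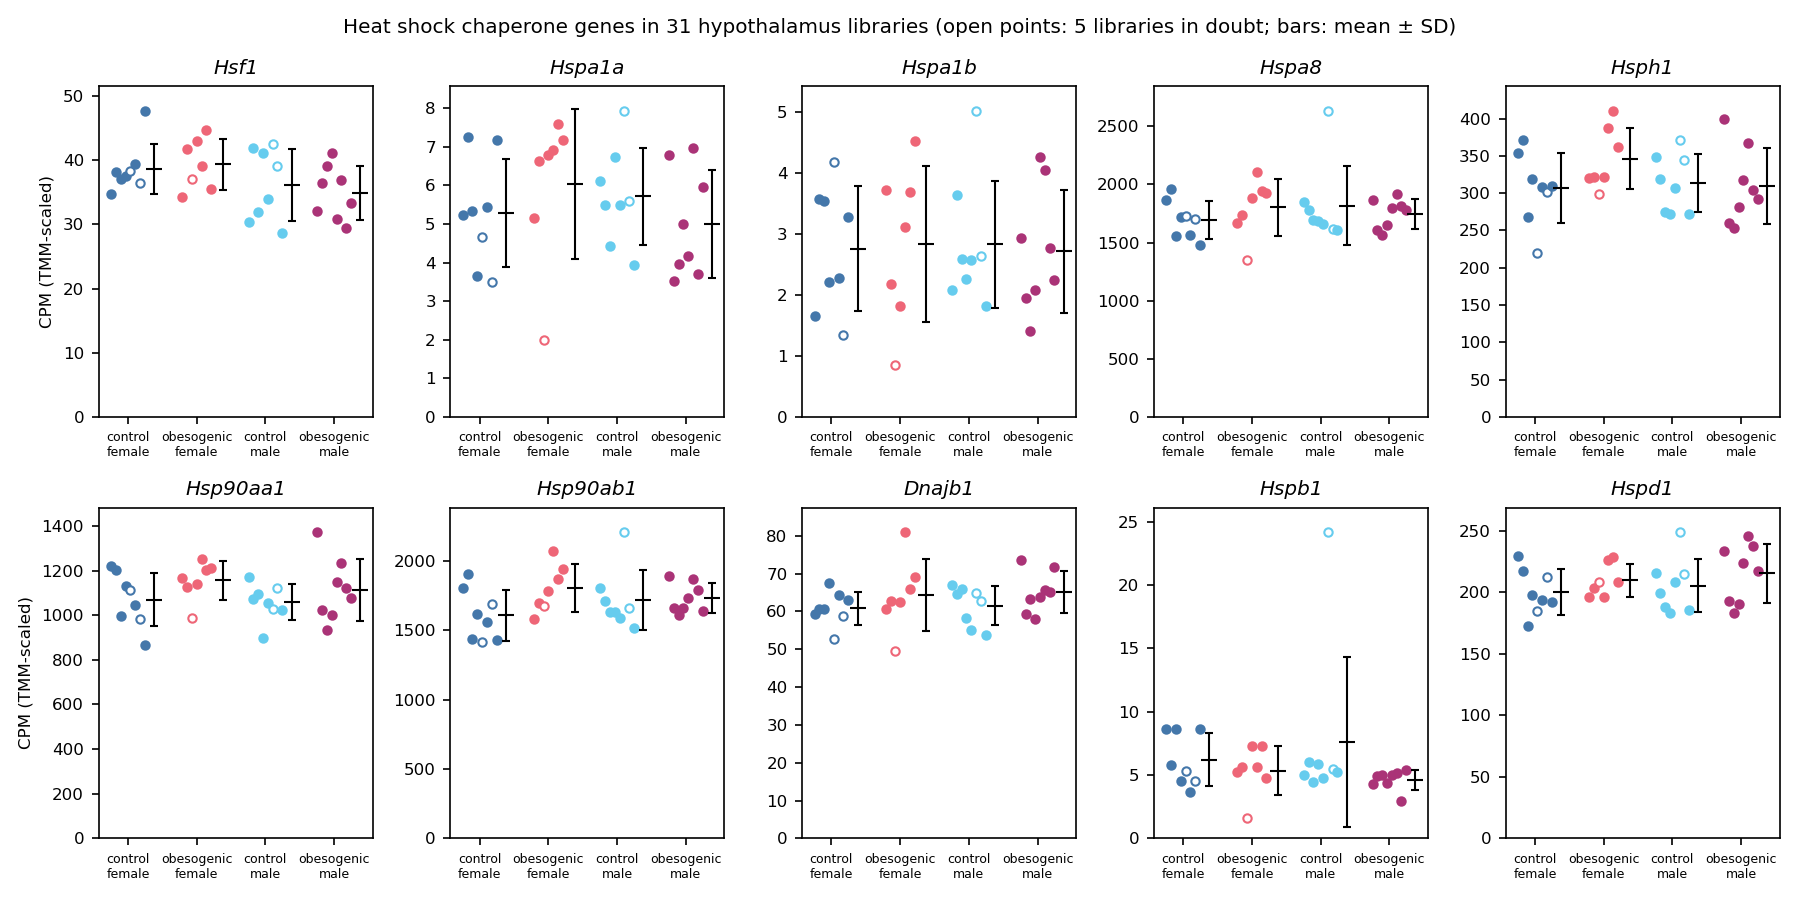
TMM-scaled CPM of each of the 10 genes (vertical axes from 0, each its own scale) in every library of the 4 groups; bars give mean ± SD and open points are the 5 libraries in doubt. All 4 groups overlap for every gene, and the open control male point at 24.2 CPM of Hspb1 is control male 6.

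Spread between libraries followed the split between constitutive and induced genes only in part. After group means were removed, the SD of log2 CPM was 0.14 for Hspd1, Hsp90ab1 and Dnajb1 and 0.15 for Hsp90aa1. Those SDs were larger than in 5.68% to 7.44% of all genes tested, or 10.4% to 21.3% without the 5 libraries in doubt. Hsf1, Hspa8 and Hsph1 had SDs of 0.17, 0.18 and 0.21. Hspa1a, Hspa1b and Hspb1 had SDs of 0.45, 0.59 and 0.60, or 0.32, 0.46 and 0.33 without the 5 libraries. Low counts carry more sampling noise, and among genes within 1 log2 CPM of their level those 3 exceeded 61.5%, 59.2% and 81.9% of genes (52.2%, 65.4% and 57.2% without the 5 libraries). Dnajb1, though stress-induced, exceeded 17% of genes of like level, or 25.7% without them. For Hsf1 that share went from 26% to 61.9%, for Hsp90aa1 from 25.6% to 47.5% and for Hspd1 from 19.99% to 41.8%.

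The first question of the design is whether the diet of the dam left a mark on the daughters. In females no member passed the test, and the largest values of the log2 fold for abundant members were those of Hsph1 and Hsp90ab1. Hsp90ab1 ran from 1417 through a median of 1587 to 1910 CPM in control females and from 1582 through 1786 to 2075 CPM in obesogenic females. The groups overlapped, with 6 of 7 obesogenic libraries above the control mean. Its log2 fold (obesogenic minus control) was 0.17 ± 0.081 (SE), with an unadjusted p of 0.0463 and an adjusted p of 0.611 (edgeR quasi-likelihood test, Benjamini-Hochberg over 18743 genes). Without the 5 libraries in doubt Hsp90ab1 had a log2 fold of 0.17 ± 0.077, edgeR adjusted p 0.566.

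Hsph1 and Hspa8 also lay within the spread between libraries. Hsph1 ran from 220 through 309 to 371 CPM in control females and from 299 through 322 to 411 CPM in obesogenic females. The lowest control value of Hsph1 was control female 5, and 6 of 7 obesogenic libraries were above the control mean. Its log2 fold was 0.18 ± 0.11 (SE), or 0.14 ± 0.099 without the libraries in doubt. Hspa8 ran from 1482 through 1711 to 1962 CPM in control females and from 1352 through 1882 to 2110 CPM in obesogenic females. The lowest of all was obesogenic female 3, and the log2 fold of Hspa8 moved from 0.09 ± 0.096 to 0.15 ± 0.075 without the libraries in doubt, with an unadjusted edgeR p of 0.0527.

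Hsp90aa1 had 869 to 1220 CPM in control females and 986 to 1253 CPM in obesogenic females, with a log2 fold of 0.11 ± 0.081, or 0.14 ± 0.086 without the libraries in doubt. Hspa1a had 3.49 to 7.26 CPM in control females and 1.99 to 7.61 CPM in obesogenic females, where the low value was again obesogenic female 3; its log2 fold was 0.20 ± 0.22, or 0.24 ± 0.18 without those libraries. The log2 folds of Dnajb1, Hspd1, Hspa1b and Hsf1 were 0.08, 0.07, 0.05 and 0.03, and that of Hspb1 was -0.21 ± 0.31. Leaving those libraries out, the 5 values were 0.10, 0.07, 0.20, 0.02 and -0.15. In all, 9 of 10 members had a positive log2 fold for diet in females, with a median of 0.09, or 9 of 10 and 0.14 without the libraries in doubt. Over all 18743 genes the median was -0.01 and 47.5% were positive. The members covaried between libraries, as shown further on, so their signs are not separate results. Some marker lists of other cells had uneven signs too: 10 of 12 genes of hypothalamic neurons were positive (median 0.15), 0 of 6 of meningeal fibroblasts (-0.29) and 5 of 5 of blood cells (0.40). In those lists 0 genes were called and 0 had an unadjusted edgeR p below 0.05 with all libraries. Over the 26 libraries not in doubt these were 7 of 12 (0.03), 0 of 6 (-0.29) and 5 of 5 (0.49). The summed level of the neuron genes was 1461 to 1720 CPM in the control females not in doubt and 1347 to 2055 CPM in such obesogenic females, that of the fibroblast genes 43.2 to 91.2 and 36.2 to 67.4 CPM, and that of the blood genes 65.03 to 232.9 and 94.0 to 332.6 CPM. No gene of these lists was at 0 throughout a group, and their part in the members' values was not tested. edgeR called 0 of 10 members and 0 of all genes (0%) in this comparison, and 1 of 10 members against 8.12% of all genes had an unadjusted p below 0.05 (1 member and 8.4% without the libraries in doubt). DESeq2 called 6 genes, none a member.

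In sons the picture was flat apart from Hspb1. Hspb1 ran from 4.45 through 5.35 to 24.2 CPM in control males and from 2.925 through 4.94 to 5.41 CPM in obesogenic males. Control male 6 was the only library above 8.64 CPM in the study. The log2 fold of Hspb1 was -0.72 ± 0.30 (SE), unadjusted p 0.0232 and edgeR adjusted p 0.940, and it was -0.17 ± 0.17 without the 5 libraries. The part that the RNA of control male 6 plays was measured only in this way. Hspd1 ran from 183 CPM through a median of 204 CPM in control males to control male 6, which lay 0.28 log2 CPM above the group mean, and from 184 through 220.4 to 245.7 CPM in obesogenic males, with a log2 fold of 0.07 ± 0.074, or 0.13 ± 0.073 without those libraries. The other 8 genes had log2 folds of -0.19 (Hspa1a) to 0.08 (Dnajb1), or -0.10 (Hspa1a) to 0.12 (Hspa1b) without those libraries.

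Over the set, 4 of 10 members were positive in males with a median of -0.04, and 8 of 10 with a median of 0.06 once the libraries in doubt were left out, so the balance of signs rested on them. In males 1 of 12 neuron genes was positive in both sets of libraries (medians -0.18 and -0.12). Their sums were 1218 to 2223 CPM in the control males not in doubt and 1079 to 1822 CPM in obesogenic males. Of genes of ependymal cells and tanycytes 0 of 6 were positive in both sets (-0.37 and -0.38), and of choroid plexus 1 of 5 tested (-0.42 and -0.44). Of endothelial genes 5 of 6 and then 6 of 6 were positive (0.22 and 0.19). The part of these cells in the members' values was not tested. edgeR called 0 of 10 members and 0% of all genes for diet in males, where 3.45% of genes and 1 member had an unadjusted p below 0.05 (2.7% and 0 members without the libraries in doubt) and DESeq2 called 1 gene. The difference between the diet effects of the sexes also called 0 members and 0% of genes (3.62% and 0 members at an unadjusted p below 0.05, or 3.48% and 0 members without the libraries in doubt; DESeq2 called 6 genes). The largest such difference was in Hspb1, 0.50 ± 0.43 (females minus males, SE), and it was 0.02 ± 0.25 without the libraries in doubt. For Hspa1a the difference was 0.39 ± 0.30, or 0.34 ± 0.25 without them. For Hsph1 and Hsp90ab1 the differences were 0.20 ± 0.15 and 0.16 ± 0.11, or 0.09 ± 0.14 and 0.10 ± 0.11 without them. The smallest adjusted p of any member in any comparison, over edgeR and each alternative, was 0.408.

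**Figure D2:**
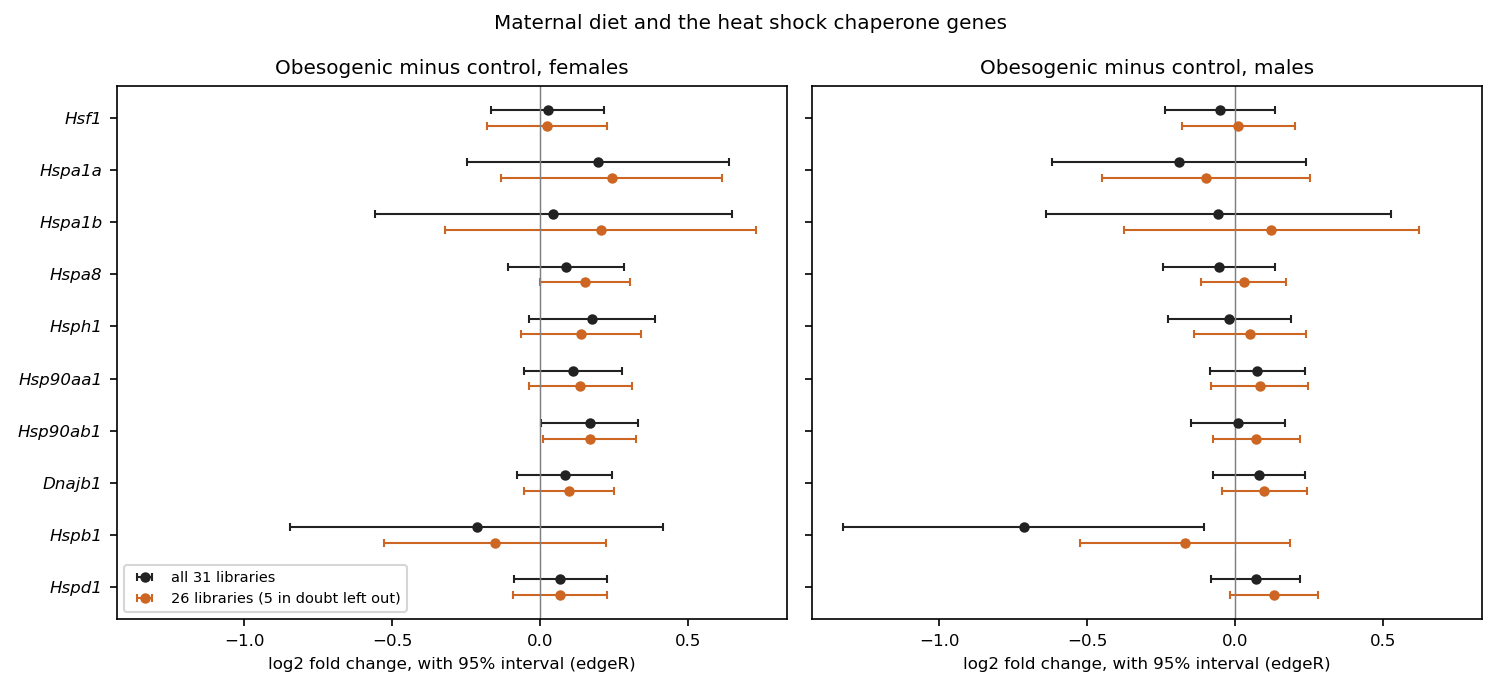
Log2 fold change (horizontal axis, obesogenic minus control) of the 10 genes in females and males with 95% intervals from edgeR, for all 31 libraries and for the 26 not in doubt. In females the interval of Hsp90ab1 lies just above 0 before adjustment, and in males the interval of Hspb1 includes 0 once the libraries in doubt are left out.

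These intervals give a range of log2 folds for each gene, without adjustment over the genes tested. For diet in females the 95% interval of the log2 fold was 0.0029 to 0.33 for Hsp90ab1, -0.11 to 0.28 for Hspa8 and -0.09 to 0.23 for Hspd1. For the low genes Hspa1a and Hspa1b it was -0.25 to 0.64 and -0.56 to 0.65, so their ranges were wider and held changes of either sign. Hsf1, the factor itself, had -0.17 to 0.22 in females and -0.24 to 0.13 in males. Over the 26 libraries not in doubt the intervals in females were 0.010 to 0.32 for Hsp90ab1, -0.0019 to 0.30 for Hspa8 and -0.32 to 0.73 for Hspa1b.

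Daughters and sons were also compared within each maternal diet. Each gene's spread was estimated over all 4 groups together, which hold the 2 control libraries against their sex label. Even Xist was not called with all libraries. It stood at 205 to 716 CPM (without TMM factors) in obesogenic females and at most 0.056 CPM in obesogenic males. The 0% called with all libraries is thus no count of the genes that differ by sex. Among offspring of control dams edgeR called 0 of 10 members and 0% of genes (4.39% at an unadjusted p below 0.05, 0 members; DESeq2 called 1 gene), and 8 of 10 log2 folds (females minus males) were negative, with a median of -0.04. Without the libraries in doubt 8 of 10 were positive, with a median of 0.06, and edgeR called 11 genes (0.0588%), none a member, with 2.42% of genes and 0 members at an unadjusted p below 0.05. The largest such turn was that of Hspb1, from -0.29 ± 0.30 to 0.35 ± 0.19. Of the 12 neuron genes, 0 were positive with all libraries (median -0.25) and 6 without those in doubt (-0.02), and their part was not tested. Among offspring of obesogenic dams 8 of 10 members were positive with a median of 0.06, or 9 of 10 with a median of 0.15 without the libraries in doubt. There edgeR, with all libraries, called 0 members and 0% of genes (3.63% at an unadjusted p below 0.05, 0 members; DESeq2 called 12 genes, none a member).

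The inducible Hspa1a was the gene with the largest offset there. It ran from 1.99 through 6.79 to 7.61 CPM in obesogenic females and from 3.53 through 4.57 to 6.98 CPM in obesogenic males. Of the 7 female libraries, obesogenic female 3 alone was below the lowest male value. The log2 fold of Hspa1a was 0.27 ± 0.22 with all libraries and 0.42 ± 0.17 without those in doubt, where the unadjusted p was 0.0192 and the edgeR adjusted p 0.859. Hsph1 (0.20 ± 0.093) and Hspb1 (0.37 ± 0.17) also had unadjusted p below 0.05 there, with adjusted p of 0.896 and 0.889. That is 3 of 10 members against 5.48% of all genes, while edgeR called 0 members and 14 of 18694 genes (0.0749%) at an adjusted p below 0.05. The members covaried between libraries, so these 3 are not separate results. With all libraries 0 members had an unadjusted edgeR p below 0.05 in this comparison.

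The wider chaperone network gave no call for diet either. Of 60 other chaperone and cochaperone genes, all tested, edgeR called 0 for diet in females (27 positive, 33 negative, 0 at an unadjusted p below 0.05) and 0 for diet in males (23 positive, 37 negative, 1 at an unadjusted p below 0.05). Over 26 libraries it again called 0, with 33 positive, 27 negative and 5 at an unadjusted p below 0.05 in females (8.33%, against 8.4% of all genes), and 31 positive, 29 negative and 1 in males (1.67%, against 2.7%). In the sentences on these 60 genes each pair of values in brackets is the log2 fold with its SE over 31 libraries and then the log2 fold over 26. Among HSP90 proteins and cochaperones the smallest p for diet in females were those of Stip1, which hands clients from HSP70 to HSP90 (0.18 ± 0.093, then 0.22), and Ptges3, the p23 cochaperone (-0.27 ± 0.14, then -0.26). In males they were Ptges3 (-0.19 ± 0.13, then -0.02) and Cdc37, which brings kinases to HSP90 (-0.14 ± 0.10, then -0.03). In males 11 of the 11 genes of that list were negative over 31 libraries, with a median of -0.05, and 9 of 11 over 26, with a median of -0.02.

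Among other HSP70 and HSP110 genes the smallest p belonged to Hspa12a (0.24 ± 0.14, then 0.17) and Hspa12b (0.29 ± 0.17, then 0.29) in females and to Hspa2 (-0.20 ± 0.10, then -0.19) and Hspa12a (0.20 ± 0.13, then 0.16) in males. Among genes listed here as HSF1 regulators and other heat shock factors they were Hsf2bp (-0.83 ± 0.65, then -1.16) and Hsbp1 (-0.13 ± 0.10, then -0.12) in females, and Hsf2 (0.16 ± 0.085, then 0.13) and Hsbp1 (-0.17 ± 0.096, then -0.05) in males. Of J-domain genes they were Dnajb4 (0.13 ± 0.092, then 0.05) and Dnajb5 (-0.35 ± 0.25, then 0.14) in females and Dnajc5 (0.08 ± 0.066, then 0.06) and Dnajc7 (-0.08 ± 0.092, then 0.03) in males. Dnajb5 and Dnajc7 turned positive over 26 libraries. Hsf2 is a second heat shock factor, and Hsbp1 encodes a small protein that binds HSF1 trimers.

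Exchange factors and HSP70 cochaperones were led by Bag5 (-0.20 ± 0.11, then -0.05) and Hikeshi (-0.13 ± 0.085, then -0.10) in females and Bag1 (-0.31 ± 0.15, then -0.08) and Bag4 (0.14 ± 0.088, then 0.10) in males. Genes listed here as small heat shock proteins were led by Hspb3 (-0.99 ± 0.61, then -0.18) and Hspb2 (-0.71 ± 0.68, then -0.34) in females and Hspb11 (-0.28 ± 0.15, then -0.12) and Cryab (-0.28 ± 0.17, then -0.05) in males. Chaperonins were led by Tcp1 (-0.08 ± 0.088, then -0.07) and Hspe1 (-0.15 ± 0.18, then -0.19) in females and Hspe1 (-0.37 ± 0.18, then -0.07) and Cct7 (-0.14 ± 0.091, then -0.05) in males. Hspe1, whose product HSP10 is the lid of the HSP60 chamber, had the only unadjusted p below 0.05 over 31 libraries (0.0459, edgeR adjusted p 0.940). The log2 folds of Bag5, Hspb3 and Hspb2 in females and of Bag1, Hspb11, Cryab, Hspe1 and Cct7 in males were nearer 0 by over 1.5 times without the libraries in doubt.

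The members covaried from library to library. For each of the 45 pairs of members, Pearson r was computed over 31 libraries on log2 CPM with group means removed, with a permutation p from 100000 shuffles within groups, adjusted over the 45 pairs. Positive r was found in 43 of 45 pairs, with a median of 0.44, and 28 pairs passed (27 positive and 1 negative). Of the 45 pairs, 30 had an r at least as far from 0 as the weakest pair that passed (0.37), against 25.8% of all 175640653 pairs of genes tested, whose median r was 0.00. Without the 5 libraries 13 pairs passed and the median was 0.34, where 11% of all gene pairs were as far from 0 as the weakest of those 13 (0.47).

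A core of 5 genes was picked from these same pairs: Hspa8, Hsph1, Hsp90aa1, Hsp90ab1 and Hspd1. All 10 pairs among them passed with 31 libraries, r 0.53 to 0.85, and with 26 libraries, r 0.75 to 0.94. That all passed follows from the choice, and the 26 libraries are part of the 31, so this is a description and no replication. Hspa8 and Hsp90ab1 had r 0.85 and rho 0.81 (adjusted p 9e-05 from permutation; the unadjusted p of 1e-05 is the smallest the permutations can give), r 0.85 without the 2 libraries farthest from the median of Hspa8, and r 0.94 over 26 libraries. Hsph1 and Hspd1 had r 0.82 and rho 0.83, with the same permutation p, r 0.86 without the 2 farthest and 0.88 over 26 libraries. For scale, 0.0480% and 0.0213% of all genes had an r as high with Hspa8 and with Hsph1. Hsp90ab1 and Hspd1 had r 0.80 (0.75 over 26 libraries), and Hsph1 and Hsp90ab1 0.78 (0.79). The core spans cytosol and mitochondrial matrix, and these correlations describe RNA in whole tissue, in which fewer cells of a type and less RNA per cell cannot be told apart.

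**Figure D3:**
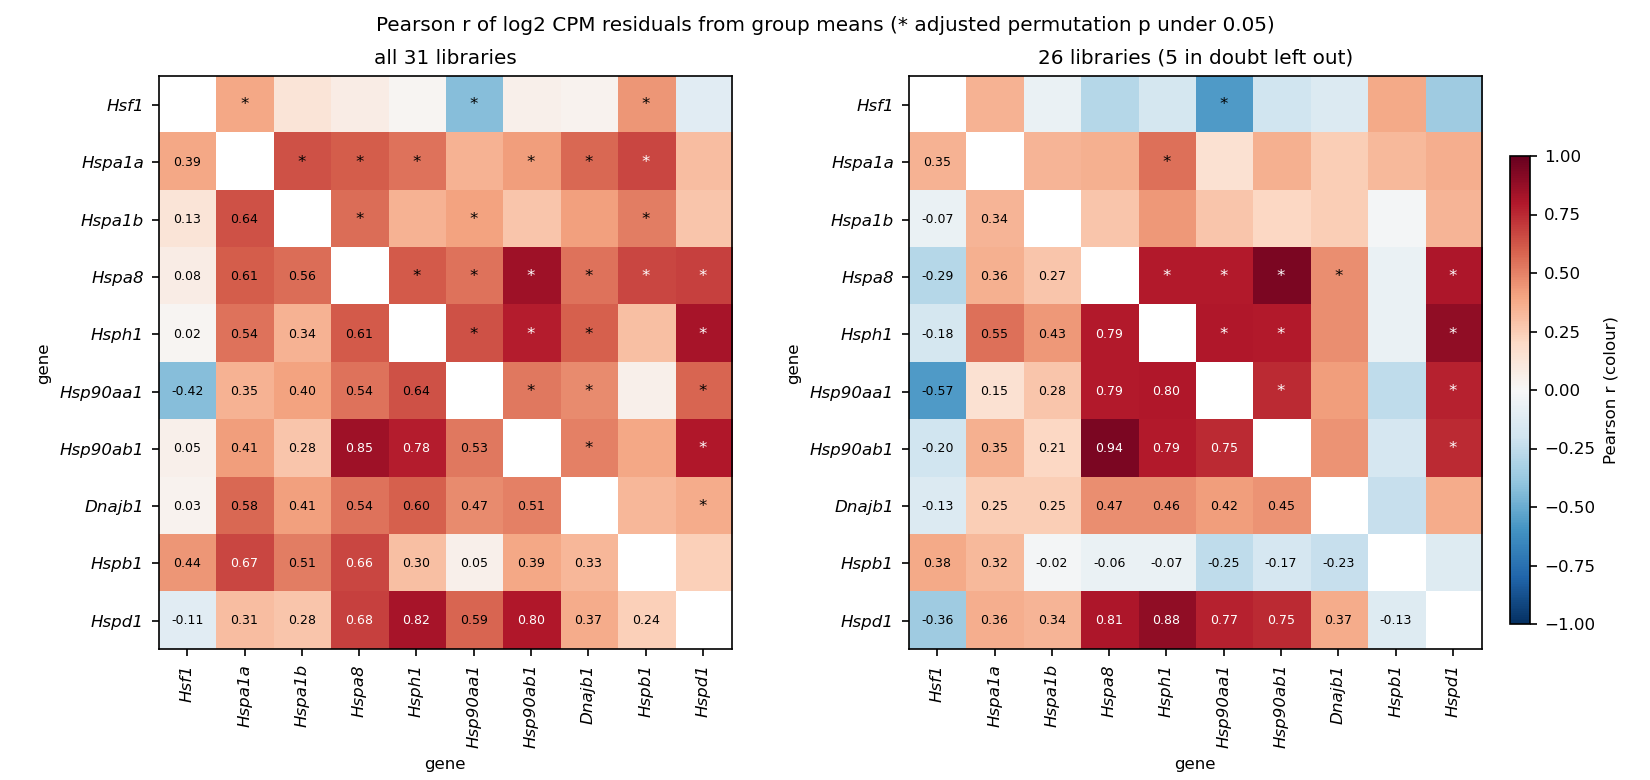
Pearson r (colour, printed below the diagonal) between residuals of log2 CPM for the 45 pairs of members, left over 31 libraries and right over the 26 not in doubt; stars above the diagonal mark an adjusted permutation p below 0.05. The block of Hspa8, Hsph1, Hsp90aa1, Hsp90ab1 and Hspd1 is starred in both panels, while most stars of Hspa1a, Hspa1b and Hspb1 are in the left panel.

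Fewer pairs with the stress-induced members passed in both sets. Dnajb1 passed with Hspa8 in both sets (r 0.54 and 0.47), and with Hsph1 (0.60), Hspa1a (0.58), Hsp90ab1 (0.51), Hsp90aa1 (0.47) and Hspd1 (0.37) over 31 libraries. Of those 5, none passed over 26. Hspa1a passed with Hsph1 in both sets (r 0.54 and 0.55). Hspa1a and Hspa1b had r 0.64 and rho 0.50 (adjusted permutation p 0.0049), 0.42 without the 2 farthest libraries and 0.34 over 26 libraries. The mean levels of these near-identical copies were 5.50 CPM for Hspa1a and 2.79 CPM for Hspa1b.

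Hspb1 passed with Hspa1a, Hspa8, Hspa1b and Hsf1 over 31 libraries and with no member over 26. Its closest pair was with Hspa1a, r 0.67 and rho 0.60 (adjusted permutation p 0.0029), and 0.32 over 26 libraries (0.26). Without the 2 libraries farthest from the median of Hspa1a (obesogenic female 3 and control female 7) r was 0.50. Control male 6, the highest library in Hspb1, stayed in that r. Hspa8 and Hspb1 had r 0.66 (adjusted permutation p 0.022) and rho 0.36 over 31 libraries, 0.18 without control male 6 and obesogenic female 3, and -0.06 over 26 libraries. Hspa1b and Hspb1 went from 0.51 to 0.18 and -0.02 in the same way. Hsf1 had no positive call with the core: its r with the 5 core genes was -0.42 to 0.08, and with Hsp90aa1 it was negative in both sets, -0.42 (adjusted permutation p 0.036, rho -0.34) and -0.57 (0.017). Hsf1 passed in the positive direction with Hspb1 (0.44, adjusted permutation p 0.024) and Hspa1a (0.39, 0.045) over 31 libraries. Over 26 libraries those r were similar in size, 0.38 (0.12) and 0.35 (0.20), and were not called. Hsf1, Hspa1a, Hspa1b and Hspb1 share a high GC content, 57.3% to 61.2% of transcript bases, above 87.1% to 97.5% of genes.

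A trend in gene length and GC content was removed from each library as a further alternative. Then 28 pairs of members passed over 31 libraries and 18 over 26 libraries, where 9.02% of all gene pairs were as far from 0 as the weakest of the 18. The negative r of Hsf1 with Hsp90aa1 was lost with the trend removed over 31 libraries and was the only negative call over 26 (-0.47, adjusted permutation p 0.046).

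**Figure D4:**
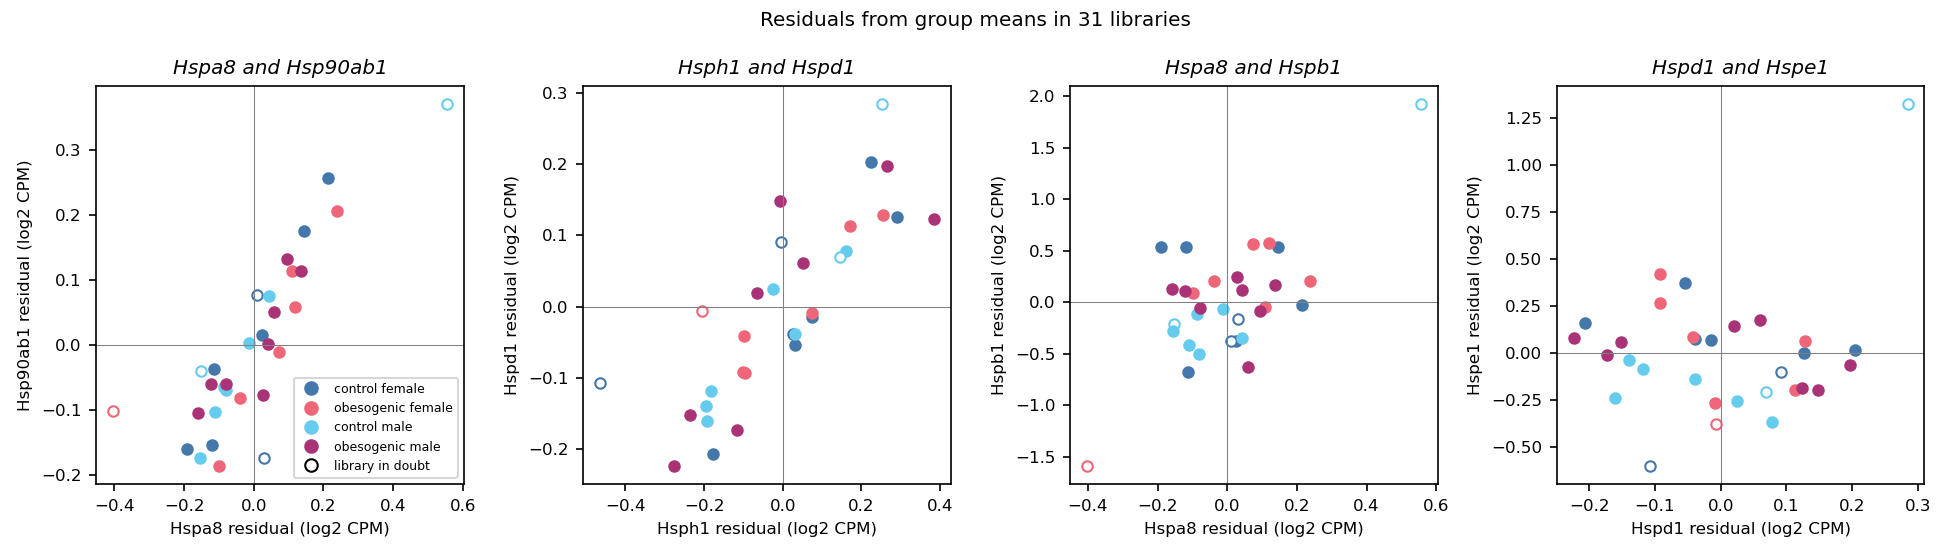
Residuals of log2 CPM from group means, one point per library, for Hspa8 with Hsp90ab1, Hsph1 with Hspd1, Hspa8 with Hspb1, and Hspd1 with its divergent neighbour Hspe1; open points are the 5 libraries in doubt. The first pair of panels form a line (r 0.85 and 0.82), while in Hspa8 with Hspb1 the open points of control male 6 (upper right) and obesogenic female 3 (lower left) lie at the ends, and in Hspd1 with Hspe1 control male 6 lies far above the rest.

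Inside single groups the covariation was uneven. In the 8 obesogenic males 12 of 45 pairs passed an exact permutation test (adjusted over the group's 45 pairs), with a median r of 0.62, and 1.84% of all gene pairs were as far from 0 as the weakest of the 12 (0.84). The strongest were Hspa8 with Hspd1 (r 0.98) and Hsph1 with Hsp90aa1 (0.97), each with an exact adjusted p of 0.0045. In the 8 control males 2 pairs passed, Hspa8 with Hsp90ab1 (0.97) and Hsph1 with Hspd1 (0.94), against 2.23% of gene pairs, and in the 7 obesogenic females also 2, Hspa8 with Dnajb1 (0.95) and Hsp90aa1 with Dnajb1 (0.93), against 0.723%.

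In the 8 control females 0 pairs passed, 7 had an unadjusted exact p below 0.05, and the median r was 0.04. Without the libraries in doubt 0 pairs passed in either control group or in obesogenic females, with medians of -0.05 in control females, 0.35 in control males and 0.53 in obesogenic females. Each of those groups then has 6 libraries, where the smallest exact p is 0.0014 and a lone pair at that p has an adjusted exact p of 0.062, so these counts of 0 say nothing on stability. The r itself remained high: in control males 0.99 for Hspa8 with Hsp90ab1 and 0.94 for Hsph1 with Hspd1, and in obesogenic females 0.88 for Hspa8 with Dnajb1 and 0.86 for Hsp90aa1 with Dnajb1. In control females Hspa8 and Hsp90ab1 had r 0.97. All 8 obesogenic males are among the libraries not in doubt. Whether the groups differ in covariation was not tested.

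Libraries were placed along this shared axis by the mean over members. Residuals are centred in each group, so every group holds libraries on both sides of 0. The group means are those of all 31 libraries, and the 5 in doubt pull them. The counts of members above a group mean depend on those 5 and were not redone over 26 libraries. The members' mean standardised residual (each residual divided by its gene's SD) was -1.79 in obesogenic female 3 and -1.05 in control male 8, and in both 0 of 10 members were above their group mean. All 10 were above it in obesogenic female 6 (0.83) and obesogenic male 6 (0.90), and 9 of 10 in obesogenic female 5 (0.96) and control male 6 (1.74). In control male 6 Hspa8 was at 2637 CPM and Hsp90ab1 at 2210 CPM, the highest values of the study. Hsp90aa1 was the exception there, at 1026 CPM in a group of 1058 ± 81.4 CPM (SD, n = 8).

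**Figure D5:**
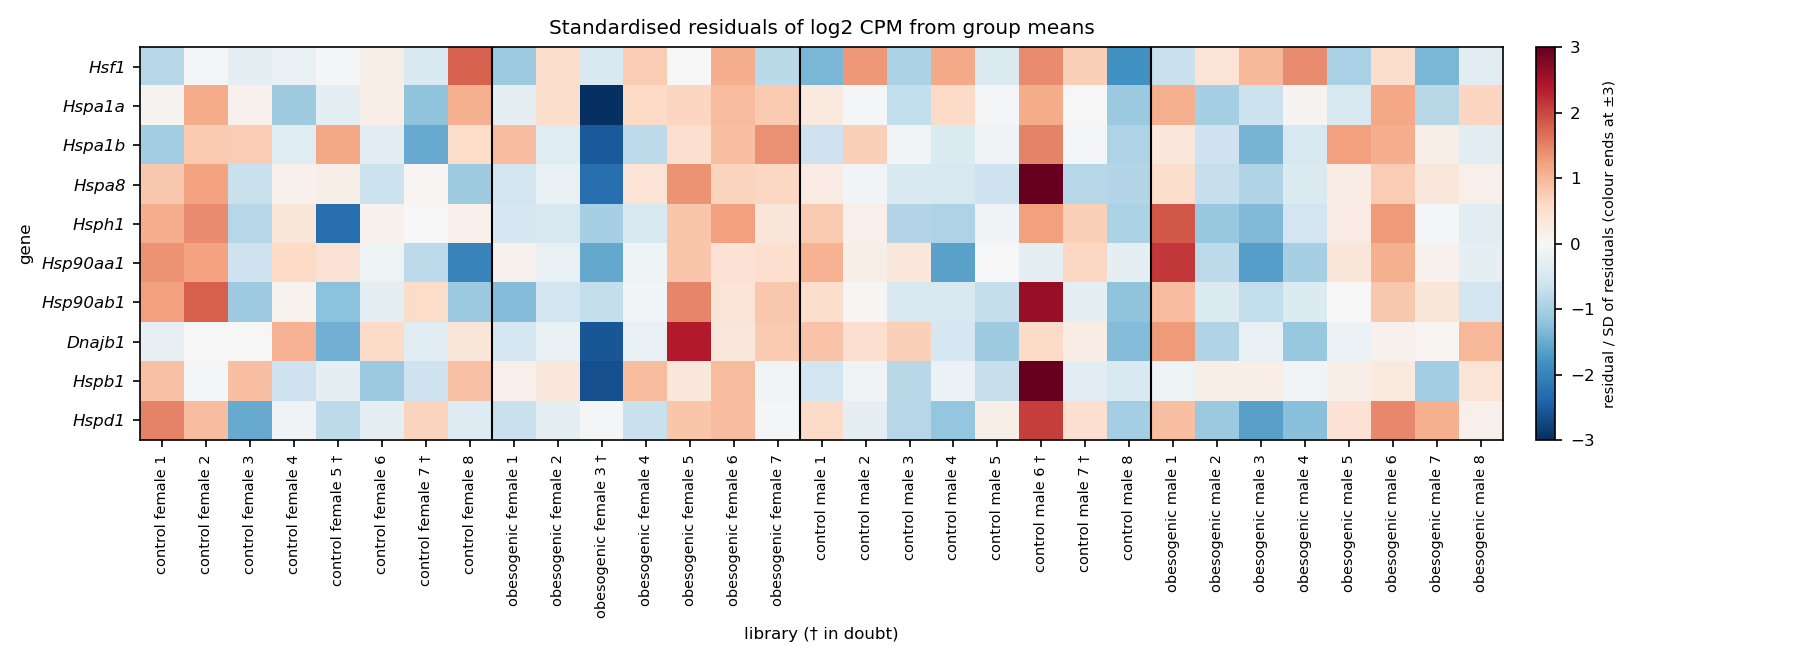
Residual of log2 CPM from the group mean divided by the gene's SD (colour, ends at ±3) for 10 genes in 31 libraries ordered by group; daggers mark the 5 libraries in doubt. With group means over all 31 libraries, those in doubt included, obesogenic female 3 and control male 8 have all 10 genes below their group mean. Obesogenic female 6 and obesogenic male 6 have all 10 above.

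Over the 26 libraries not in doubt, marker lists of most other cell types had a negative r with the members' mean residual, the glial lists the furthest from 0. Over these 26 libraries, it had r -0.66 with the mean of 7 astrocyte genes, -0.64 with 7 microglia genes and -0.50 with 6 oligodendrocyte genes. It had -0.42 with mural cells, -0.40 with ependymal cells and tanycytes, -0.30 with blood cells, -0.25 with endothelial cells, -0.24 with meningeal fibroblasts and -0.0037 with choroid plexus. With 12 genes of hypothalamic neurons it had 0.16, with genes of olfactory bulb and telencephalon 0.27, and with the total of counted pairs 0.20. Over 31 libraries astrocytes, microglia, oligodendrocytes, neurons and total pairs had -0.26, -0.18, 0.16, 0.21 and 0.18, and the other 7 lists had -0.17 to 0.22. These are descriptions. All genes of a library share its depth and dissection, and the part of the cell mix in the covariation was not tested. Summed levels of the 7 astrocyte genes were 3067 to 4951 CPM in the libraries not in doubt.

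Partner genes of known roles were set beside the members. Each of the 10 members was compared with 10 partners, and 31 of 100 pairs passed the permutation test adjusted over 100 (29 positive, 2 negative), where 16.4% of all gene pairs were as far from 0 as the weakest of them (0.46). Without the libraries in doubt 23 passed (18 positive, 5 negative), against 10.1%. Stip1 passed with 9 members: its r with Hspa8 was 0.88 over 31 libraries and 0.87 over 26 (adjusted permutation p 0.00014 in both). Dnaja1, an HSP40 protein like Dnajb1, had r 0.83 with Hspd1 and 0.82 with Hsph1, and 0.80 and 0.84 over 26 libraries. Hspa5, the HSP70 of the endoplasmic reticulum, is known as a target of the unfolded protein response and had r 0.85 with Hsph1, 0.81 with Hsp90ab1 and 0.77 with Hspd1 (0.84, 0.70 and 0.76 over 26 libraries).

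Other partners were less close. Bag3, a stress-induced exchange factor, passed with Hsph1 (0.47), Hspb1 (0.47) and Hspa1a (0.46) over 31 libraries only. Chordc1, an HSP90 cochaperone, passed with Hsp90aa1 in both sets (0.55 and 0.61). The cold-induced RNA-binding protein genes gave the 2 negative calls over 31 libraries, Cirbp with Hsp90aa1 (-0.49, adjusted permutation p 0.034) and Rbm3 with Hsph1 (-0.47, 0.049). With the other members Cirbp had r of -0.26 to 0.30, positive with 5 of 10, and Rbm3 -0.45 to 0.04, positive with 1. Over 26 libraries the called pairs had -0.47 (0.11) and -0.42 (0.21). With the length and GC trend also removed they had -0.18 and -0.09. The activity gene Fos passed with Dnajb1 alone, r 0.56 and rho 0.48 (adjusted permutation p 0.013), 0.46 without the 2 farthest libraries and 0.65 (0.0023) over 26 libraries. Fkbp5, a glucocorticoid-induced gene, passed with no member.

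Hspd1 and Hspe1, of which one window each shares the element shown above, were not called as a positive pair in any setting. Their r was 0.18 over 31 libraries (rho -0.13, adjusted permutation p 0.49), -0.17 without the 2 libraries farthest in Hspd1, and -0.51 over 26 libraries (0.023). In control male 6 Hspe1 stood at 263.5 CPM, against 61.5 to 121 CPM in the other 30 libraries. Over 31 libraries Hspe1 passed with Hspb1 alone, and that pair was positive (r 0.76, rho 0.63, adjusted permutation p 0.0049). Its r was 0.51 without control male 6 and obesogenic female 3, and its sign was the same over 26 libraries. Over 26 libraries Hspe1 was also negative with Hsp90ab1 (-0.77, 0.00014), Hspa8 (-0.64, 0.0042), Hsph1 (-0.54, 0.02) and Hsp90aa1 (-0.48, 0.016). Hspe1 is the shorter gene, with 1474 bases of model against 2642 for Hspd1. With the length and GC trend removed over 26 libraries, r was -0.39 (0.15) with Hspd1 and -0.63 (0.011) with Hsp90ab1. Counting used strand, so pairs of the 2 divergent genes are told apart.

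The genes most like the set were named by their r with the members' mean standardised residual over 31 libraries. They were Fkbp4 (0.92), Stip1 (0.91), Ahsa1 (0.89), Hspa5 (0.83), Pdia6 (0.82), Hsp90b1 (0.82), Pdia3 (0.82) and Ppa1 (0.81). Fkbp4, Stip1 and Ahsa1 encode HSP90 cochaperones, and Hspa5, Pdia6, Hsp90b1 and Pdia3 encode folding proteins of the endoplasmic reticulum; Ppa1 encodes a pyrophosphatase. Over 26 libraries the r of Fkbp4, Stip1, Hspa5, Ahsa1 and Hsp90b1 was 0.88, 0.87, 0.84, 0.77 and 0.76. For Pdia6, Ppa1 and Pdia3 it was 0.73, 0.67 and 0.59. Among the members themselves, the r with that mean, to which each contributes, was highest for Hspa8 (0.89) and lowest for Hsf1 (0.23).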

How the data were processed

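RNA from the hypothalamus was isolated and libraries were made with TruSeq protocols, per the labels' protocols. Per the submitters' processing notes, reads on build mm10 went through TopHat2 2.0.13, with FastQC, Subread and edgeR also named. The deposited values are raw counts of read pairs from featureCounts 1.6.2, with genes of Ensembl release 94 (GRCm38), a mapping quality of at least 10 and the reverse strand, per the file headers. No option in that command keeps pairs that map to several places or overlap several genes, so these are left out. 0 columns were left unused.

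Symbols were matched for 54409 of 54532 genes. edgeR 4.0.16 (R 4.3.3) was fitted to all 31 libraries with 1 mean per group, filterByExpr, TMM factors and robust quasi-likelihood tests, with Benjamini-Hochberg adjustment over 18743 genes at 0.05. The threshold for pairs was also 0.05. Correlations used log2 CPM with a prior count of 2. Alternatives were DESeq2 1.42.0, limma 3.58.1 (voom with quality weights), RLE size factors, no filter, CPM without TMM factors, a prior count of 0.5, and leaving out the 5 libraries in doubt: those over 3 median absolute deviations below the median correlation, and those against their sex label. Removal of a length and GC trend (polynomial of degree 4, 99.9% of genes with a GC value) was chosen after seeing the data. The edgeR script and the correlation script were tested on simulated data.

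The members and lists were chosen with earlier results of these data known. Named genes are the 10 members, the 10 partners, per pathway list the 2 genes of smallest p for diet in each sex, and the 8 named genes most like the members' mean residual.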

Additional observations from a re-analysis of the deposited data

Results flagged for a closer look

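In each group of 7 or 8 libraries, the highest and lowest CPM of each member were set against the gap to the next library, a test that chance passes in about 1 of 20 groups. Of 40 groups, 5 had such a library. In control males, control male 6 was far above the others in 3 genes: 24.2 CPM of Hspb1 (next 6.03), 2637 CPM of Hspa8 (next 1848) and 2210 CPM of Hsp90ab1 (next 1803). Control male 6 is one of the 5 libraries in doubt. In control females, control female 8 had 47.8 CPM of Hsf1, with the next at 39.4. In obesogenic males, obesogenic male 7 had 2.925 CPM of Hspb1, with the next lowest at 4.29.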

How the results depend on the processing

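No paired analysis was possible because the labels give no replicate numbers, animals or litters that tie libraries across groups. In every alternative run 0 of 10 members were called in each of the 5 comparisons. Over all genes, where edgeR called 0, DESeq2 called 6 for diet in females, 1 for diet in males, 6 for diet by sex, 1 for sex in control and 12 for sex in obesogenic; voom called 2 for sex in obesogenic; and without the libraries in doubt edgeR called 11 for sex in control and 14 for sex in obesogenic. Pairs of members that passed went from 28 to 13 without the libraries in doubt and to 18 with the trend also removed; within obesogenic females and within control males they went from 2 to 0, where 6 libraries remain per group and a lone pair cannot pass, while r of the 4 pairs was 0.86 to 0.99. Other settings gave 22 to 28 pairs of members and 21 to 35 pairs with partners. Which of the 5 libraries carries each change was not tested one by one.

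Signs of log2 folds changed as follows, none with a call. Without the libraries in doubt, diet in males became 0.011 for Hsf1, 0.12 for Hspa1b, 0.028 for Hspa8 and 0.050 for Hsph1; diet by sex became -0.0012 for Dnajb1; sex in control became 0.082 for Hspa1a, 0.14 for Hspa1b, 0.11 for Hsph1, 0.041 for Dnajb1, 0.35 for Hspb1 (from -0.29) and 0.028 for Hspd1; and sex in obesogenic became 0.040 for Dnajb1. With voom, diet in males became 0.0054 for Hsf1, 0.0090 for Hspa1b and 0.026 for Hspa8, sex in control 0.0052 for Hspa8, 0.039 for Hsph1, -0.0017 for Hsp90aa1, 0.0072 for Dnajb1, 0.13 for Hspb1 and 0.014 for Hspd1, and sex in obesogenic 0.018 for Dnajb1. Diet by sex of Hspd1 became 0.0048 with DESeq2 and 0.0049 with RLE size factors. No sign of a member changed without the filter. Of the pathway genes named, Dnajb5 in females (-0.35) became 0.14 and Dnajc7 in males (-0.08) 0.03 without the libraries in doubt.

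Signs of r changed as follows. Without the libraries in doubt r became -0.020 for Hspa1b with Hspb1, -0.065 for Hspa8 with Hspb1, and, with Hspe1, -0.64 for Hspa8, -0.54 for Hsph1, -0.77 for Hsp90ab1 and -0.51 for Hspd1. With the trend also removed it was -4.2e-05 for Hspa1b with Hspb1 and, with Hspe1, -0.53 for Hspa8, -0.32 for Hsph1, -0.63 for Hsp90ab1 and -0.39 for Hspd1. With the trend removed over 31 libraries Hsp90aa1 with Hspe1 had 0.10, and without TMM factors Hspd1 with Hspe1 had -0.0057. The cause of these changes was not tested. The members with an SD below that of the median gene were 7 in both sets of libraries. Counts of the low genes Hspa1a, Hspa1b and Hspb1 limit what could be detected for them.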

Other observations

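Without the libraries in doubt, the 8 named genes most like the members' mean residual were partly other ones. Fkbp4 (0.88), Stip1 (0.87) and Hspa5 (0.84) stayed among them. They were joined by Nemf (0.86, against 0.18 over 31 libraries), Pja1 (0.84, against 0.58), Pnmal1 (0.82, against 0.39), Cx3cl1 (0.81, against 0.17) and Hapln4 (0.80, against 0.60). Nemf encodes a factor of ribosome quality control, Cx3cl1 the neuronal chemokine fractalkine, and Hapln4 a link protein of perineuronal nets. At the other end over 31 libraries were Lss (-0.81), an enzyme of cholesterol synthesis, Lca5 (-0.81), a ciliary gene, and Nek9 (-0.80), a kinase of cell division, with -0.57, -0.53 and -0.72 over 26 libraries. These genes were ranked over the same libraries that gave the mean, so the values are a description.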
